A study of Mus musculus with 9 samples.

Results

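The respiratory chain subunits examined here were the protein-coding genes whose symbols begin with Nduf followed by a, b, c, s or v and a number (NADH dehydrogenase, complex I), are Sdha to Sdhd (succinate dehydrogenase, complex II), or begin with Uqcr (cytochrome bc1 complex, complex III), Cox4 to Cox8 (cytochrome c oxidase, complex IV) or Atp5 (ATP synthase). Ndufa4l2 and the assembly factors were left out. The rule gave 83 genes of 22092 with counts, 36 in complex I, 4 in complex II, 8 in complex III, 18 in complex IV and 17 in ATP synthase. Placement follows the symbol, although Ndufa4 is now known as a partner of complex IV and Atp5s as a coupling factor. The libraries were made from mice of strain Aldh1L1 JD130 (tg:Aldh1L1-L10aGFP) that were 2 months old and not treated, and all groups carried this transgene. In these mice the promoter of the astrocyte gene Aldh1l1 drives a GFP-tagged ribosomal protein, L10a, and the mRNAs on tagged ribosomes are pulled down with GFP antibodies (translating ribosome affinity purification, TRAP). Whole astrocyte TRAP (3 libraries, W1 to W3) started from a whole brain each, without the choroid plexus, and endfeet TRAP (6 libraries, E1 to E6) from purified brain vessels of pooled animals, to which the astrocyte processes that wrap vessels stay attached. The libraries were compared to learn which astrocyte mRNAs are found on ribosomes of these processes.

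Oxidative phosphorylation takes place in the inner membrane of mitochondria. Complexes I and II pass electrons from NADH and succinate to ubiquinone, complex III passes them to cytochrome c and complex IV to oxygen, and the proton gradient built by complexes I, III and IV drives ATP synthase. Most subunits are encoded in the nucleus, are made on cytosolic ribosomes such as those that carry L10a, and are imported, whereas a small core is encoded in mitochondrial DNA and made on ribosomes inside the organelle. Factors such as NRF1, GABP and the estrogen-related receptors are known to act at promoters of many of these nuclear genes.

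Promoters were searched for these factors' consensus words because the subunits moved together in the comparison below. Of the 83 genes, 68 had an entry in a RefSeq table of promoters (build GRCm38.p6), of which the 250 bases before the start site were read on both strands. The NRF1 word GCGCANGCG was found in 13 of 68 windows (19.1%) and in 7.24% of 17492 windows of protein-coding genes. Of the windows of subunits called lower in endfeet TRAP, 8 of 47 (17.0%) held it, and of the others 5 of 21 (23.8%). Among these 5 were Ndufs5 and Atp5g2, which had too few counts to be tested. The GABP word CCGGAAGT was found in 3 of 68 windows (4.41%, against 3.84% of all), the word TCAAGGTCA of estrogen-related receptors in 1 (1.47%, against 0.314%) and the YY1 word AAGATGGC in 0 (against 1.51%). These words do not overlap each other in the windows shown. Printed are 3 windows that each hold a different word, with the word in capitals, and that of Cox5a, which holds none of the 4 and belongs to a subunit with one of the 10 smallest adjusted p-values.
Atp5g3, chr2:73911327-73911576, minus strand: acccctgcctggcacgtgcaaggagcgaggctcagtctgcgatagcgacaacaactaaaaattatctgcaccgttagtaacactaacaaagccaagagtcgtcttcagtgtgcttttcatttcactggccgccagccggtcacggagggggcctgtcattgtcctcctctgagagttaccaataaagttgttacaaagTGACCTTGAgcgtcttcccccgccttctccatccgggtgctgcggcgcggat
Uqcr11, chr10:80406822-80407071, minus strand: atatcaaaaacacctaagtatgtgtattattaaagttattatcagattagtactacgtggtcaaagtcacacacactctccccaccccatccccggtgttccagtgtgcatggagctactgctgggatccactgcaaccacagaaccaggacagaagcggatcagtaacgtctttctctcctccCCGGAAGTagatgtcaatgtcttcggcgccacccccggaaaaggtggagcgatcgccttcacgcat
Ndufs5, chr4:123718187-123718436, minus strand: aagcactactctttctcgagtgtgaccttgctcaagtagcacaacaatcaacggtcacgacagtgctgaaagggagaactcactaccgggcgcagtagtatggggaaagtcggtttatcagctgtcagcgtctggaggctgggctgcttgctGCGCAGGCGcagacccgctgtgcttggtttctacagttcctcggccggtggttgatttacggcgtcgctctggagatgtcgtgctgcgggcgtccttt
Cox5a, chr9:57520982-57521231, plus strand: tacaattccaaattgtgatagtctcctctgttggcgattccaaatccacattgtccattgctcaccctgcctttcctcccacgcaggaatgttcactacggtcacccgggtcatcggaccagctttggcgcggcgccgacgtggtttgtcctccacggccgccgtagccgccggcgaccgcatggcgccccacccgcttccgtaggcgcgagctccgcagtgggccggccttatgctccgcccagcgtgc
In Atp5g3 the word of estrogen-related receptors lay 52 to 44 bases before the start site, in Uqcr11 the GABP word 66 to 59 bases before it, and in Ndufs5 the NRF1 word 98 to 90 bases before it. Windows that ran over more than 30 bases of an annotated exon were not considered for printing.

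Levels are given as CPM, the count of a gene scaled to a common total of all gene counts. Gene totals were 35984144 to 43521208 in whole astrocyte libraries and 2319495 to 13450588 in endfeet libraries, so that 3 counts, taken as the smallest amount that can be told from 0, stood for 0.0689 to 0.0834 CPM and 0.223 to 1.29 CPM. The common dispersion, a measure of spread between libraries beyond counting error, was 0.0141 among whole astrocyte and 0.725 among endfeet libraries. Defining markers of vascular cells were near 0 in whole astrocyte TRAP and high in endfeet TRAP. All 12 endothelial genes tested were higher in endfeet TRAP (summed 2760 to 5940 CPM, against 7.95 to 10.3), as were all 13 pericyte and mural genes (3390 to 8530, against 44.3 to 51.5), all 6 fibroblast genes (648 to 1190, against 23.1 to 31.4), 5 of 8 microglia and macrophage genes (196 to 353, against 29.4 to 32.6) and 5 of 6 ependymal and choroid genes (6550 to 71400, against 43.5 to 1470, mostly Ttr). Of 12 astrocyte genes, 5 were lower and 2 higher (12500 to 32300, against 25100 to 27100), of 8 neuronal genes 3 were lower (982 to 1870, against 3610 to 4110), and of 6 oligodendrocyte genes 1 was lower (218 to 511, against 640 to 666). The part of these cells in the differences given here was not tested, and in bulk libraries fewer cells of a type and less mRNA per cell cannot be told apart.

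mRNAs of nuclear-encoded subunits were lower in endfeet TRAP throughout the chain. Their summed level was 17500, 18800 and 18900 CPM in W1 to W3, and had a lowest value of 4030 and a highest of 6090 CPM in the endfeet libraries, 3.51-fold lower by the group means of 18400 ± 822 (SD, n = 3) and 5240 ± 763 (SD, n = 6). No endfeet library came near a whole astrocyte library. The filter on low counts was passed by 80 of the 83 genes. In edgeR's quasi-likelihood test 57 of these 80 were lower in endfeet TRAP at an adjusted p of at most 0.05, where 13.9% of the 14427 genes tested were lower. No subunit was higher in this test, where 20.7% of all genes were higher. At an unadjusted p under 0.05 the count was 0 as well, against 25.6% of all genes, and by adjusted p it was 0 in DESeq2 (21.9% of all genes) and in limma voom (27.2%). The log2 fold change was below 0 in 77 of 80, with a median of -1.86, against 0.10 over all genes tested. In 67 of the 80, every endfeet library was below every whole astrocyte library, which held for 25.7% of all genes tested, and in 0 every endfeet library was above.

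**Figure D1:**
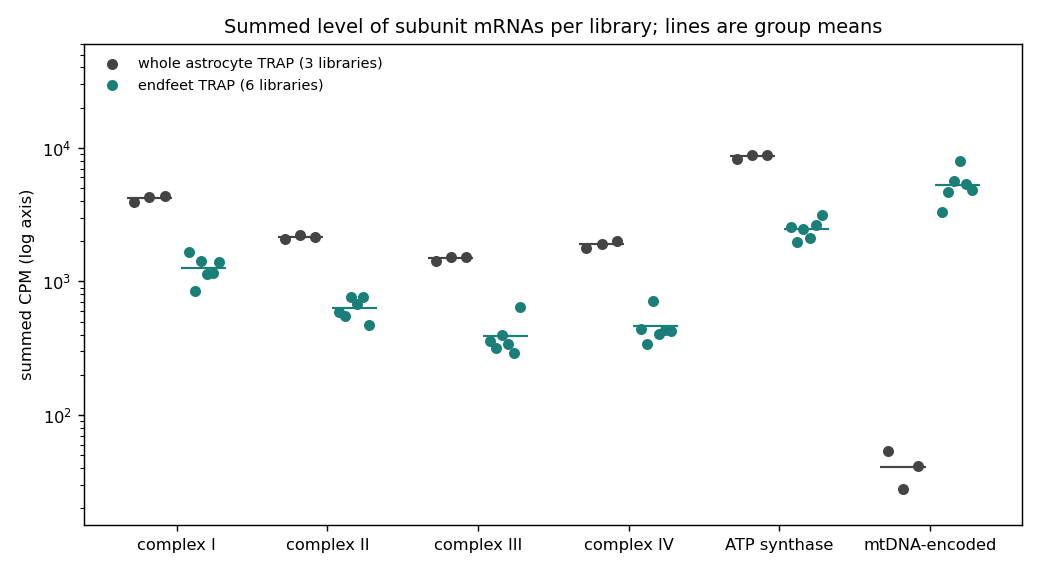
Summed CPM (log axis) of the subunit mRNAs of each complex and of the subunits encoded in mitochondrial DNA, with 1 point for each of 3 whole astrocyte and 6 endfeet TRAP libraries and lines at the group means. In all 5 nuclear-encoded groups the endfeet points lie below the whole astrocyte points, and the mitochondrially encoded mRNAs lie above them (3300 to 7970 against 27.8 to 53.6 CPM).

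The difference also moved with transcript length, since the transcripts counted for the subunits were short, with a median of 836 bases against 3146 for all protein-coding genes tested. Over the protein-coding genes tested, the median log2 fold change was -1.06 for transcripts under 600 bases, -1.13 from 600, -0.69 from 1000, -0.04 from 2000 and 0.67 from 4000 bases, and the share called lower was 22.5%, 29.0%, 21.9%, 13.6% and 7.72%. In the same order 10 of 21, 18 of 25, 22 of 25, 6 of 6 and 1 of 3 subunits were lower, with medians of -1.62, -1.93, -1.91, -1.26 and -0.99. A further cut kept genes with a mean of at least 10 CPM in whole astrocyte TRAP, and used that group alone. Of these protein-coding genes 45.6%, 48.8%, 35.0%, 20.8% and 10.5% were lower, with medians of -1.62, -1.67, -1.23, -0.53 and 0.30. Of the subunits among them 9 of 13, 17 of 22, 22 of 24, 6 of 6 and 1 of 3 were lower. Their medians were -1.93, -1.94, -1.91, -1.26 and -0.99. The length classes go by the counted transcript, which for some subunits was longer than the coding one. Among them were Ndufb7, the 1 lower from 4000 bases, Cox6c among the 6 from 2000 and Atp5e from 1000 bases (lengths below). Genes of cytosolic ribosomal proteins are another family with short transcripts. Of 41 with transcripts under 1000 bases, 2 were lower and 3 higher, against 13.9% and 20.7% of all genes, with a median of 0.36. Words that these genes share with other loci were not counted. When each library's trend on length was removed, a setting chosen after seeing the data, 23 of 80 subunits were lower and 0 higher, against 11.7% of all genes lower, and the median was -0.87 with 65 values below 0. The 23 were Ndufa8, Ndufb10, Ndufb7 and Ndufv2 of complex I, all 4 genes of complex II, Uqcrh and Uqcrq of complex III, Cox4i1, Cox5a, Cox6b1, Cox6c, Cox7b and Cox7b2 of complex IV, and Atp5b, Atp5c1, Atp5d, Atp5e, Atp5g3, Atp5mpl and Atp5o of ATP synthase. For Ndufb7, Cox6c and Atp5e the counts and length in this fit were those of a longer transcript with a retained intron (4435, 3038 and 1697 bases, against 623, 503 and 421 for the coding transcript). When counts and lengths of coding transcripts were used instead, also chosen after seeing the data, these 3 were not called (adjusted p = 0.27, 0.499 and 0.0733) and the other 20 were, against 11.7% of all genes lower. What gives rise to the trend was not tested.

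**Figure D2:**
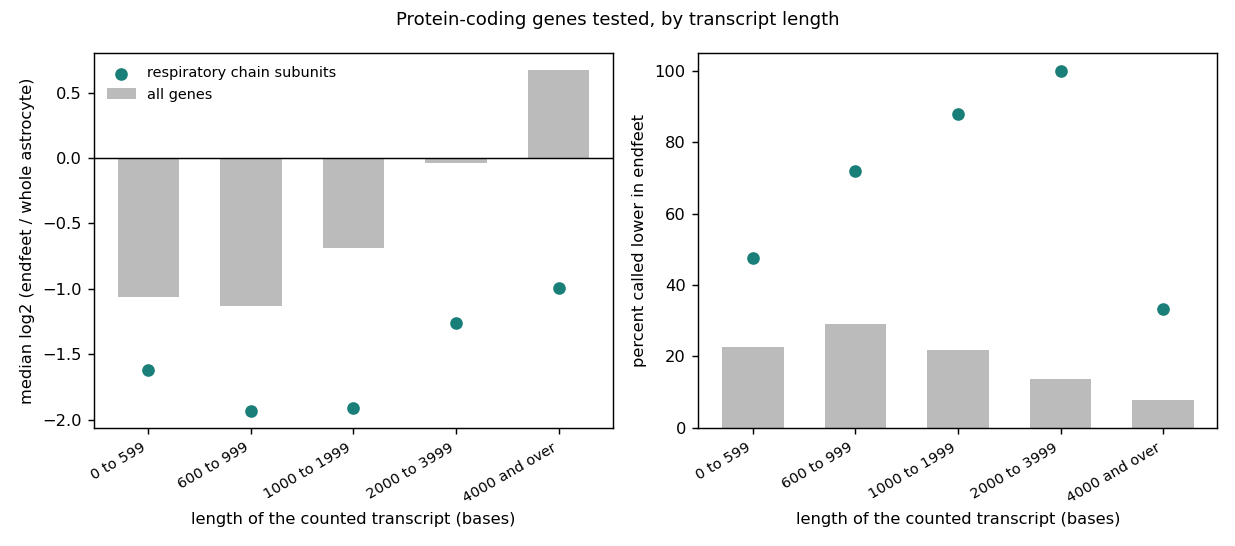
Median log2 fold change (left) and percent called lower in endfeet TRAP (right) by length in bases of the counted transcript, for all protein-coding genes tested (bars) and for the respiratory chain subunits among them (points, 21, 25, 25, 6 and 3 genes from left to right). The bars on the left go from 0.67 at 4000 bases and over to -1.13 from 600 up to 1000 bases, and the points lie below the bar values on the left and above them on the right in each class. Ndufb7, Cox6c and Atp5e are placed by transcripts with a retained intron (4435, 3038 and 1697 bases). Their coding transcripts have 623, 503 and 421 bases.

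Complex I, the largest complex, had 24 of 35 tested subunits lower and none higher, with a median log2 fold change of -1.73. With the length trend removed, 4 of 35 were lower (median -0.63), a share close to the 11.7% of all genes in that fit. Its summed level lay between 3920 and 4380 CPM in whole astrocyte libraries and between 847 and 1660 CPM in those of endfeet. Of the 7 nuclear-encoded core subunits, which carry the flavin and iron-sulfur centres, 6 were lower (median -1.79), and Ndufs3 was not called (log2 fold change -1.79, adjusted p = 0.21). Of 28 accessory subunits tested, 18 were lower (median -1.66). The accessory subunit Ndufb10 had the lowest fold change of the complex, with 212, 238 and 267 CPM in W1 to W3 and between 18.5 and 64.0 CPM (median 33.6) in endfeet TRAP. All endfeet libraries were far below all whole astrocyte libraries, a change of -2.70 on the log2 scale (SE 0.336, adjusted p = 5.1e-05). Ndufc2, at 407 ± 15.5 CPM per 1000 bases (SD, n = 3) the member of complex I with the highest level per length in whole astrocyte TRAP, had 286, 266 and 281 CPM there and 44.7 to 187 CPM (median 61.4) in endfeet TRAP. Its highest value, in E1, stood apart from the other 5 but was still below every whole astrocyte library (log2 fold change -1.59, SE 0.451, adjusted p = 0.015). Ndufc2 was not called without W1 (log2 fold change -1.53) or with the length trend removed (adjusted p = 0.724).

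Ndufb2 was the complex I member with the highest fold change. It had 27.0, 27.0 and 29.4 CPM in whole astrocyte TRAP and 14.3 to 56.5 CPM (median 27.5) in endfeet TRAP. The groups overlapped, and the log2 fold change of 0.24 (SE 0.507, adjusted p = 0.75) had the opposite sign, -0.57, when counts of all its transcripts were summed. Counts of this gene came from a transcript of 4371 bases, 8.58% of which other annotated genes overlap. The gene Ndufs5, an accessory subunit, did not pass the filter, with 1.47, 0.666 and 0.988 CPM in whole astrocyte TRAP and 0 to 0.431 CPM in endfeet TRAP. Of the 50-base words of its transcript, 35.6% also occur at other annotated loci, and reads that aligned more than once had been removed. Shares of 35.8% and 37.0% were found for Ndufs3 and Ndufb4, which had 1.72 and 4.46 CPM per 1000 bases in whole astrocyte TRAP, so that levels of these genes are uncertain.

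**Figure D3:**
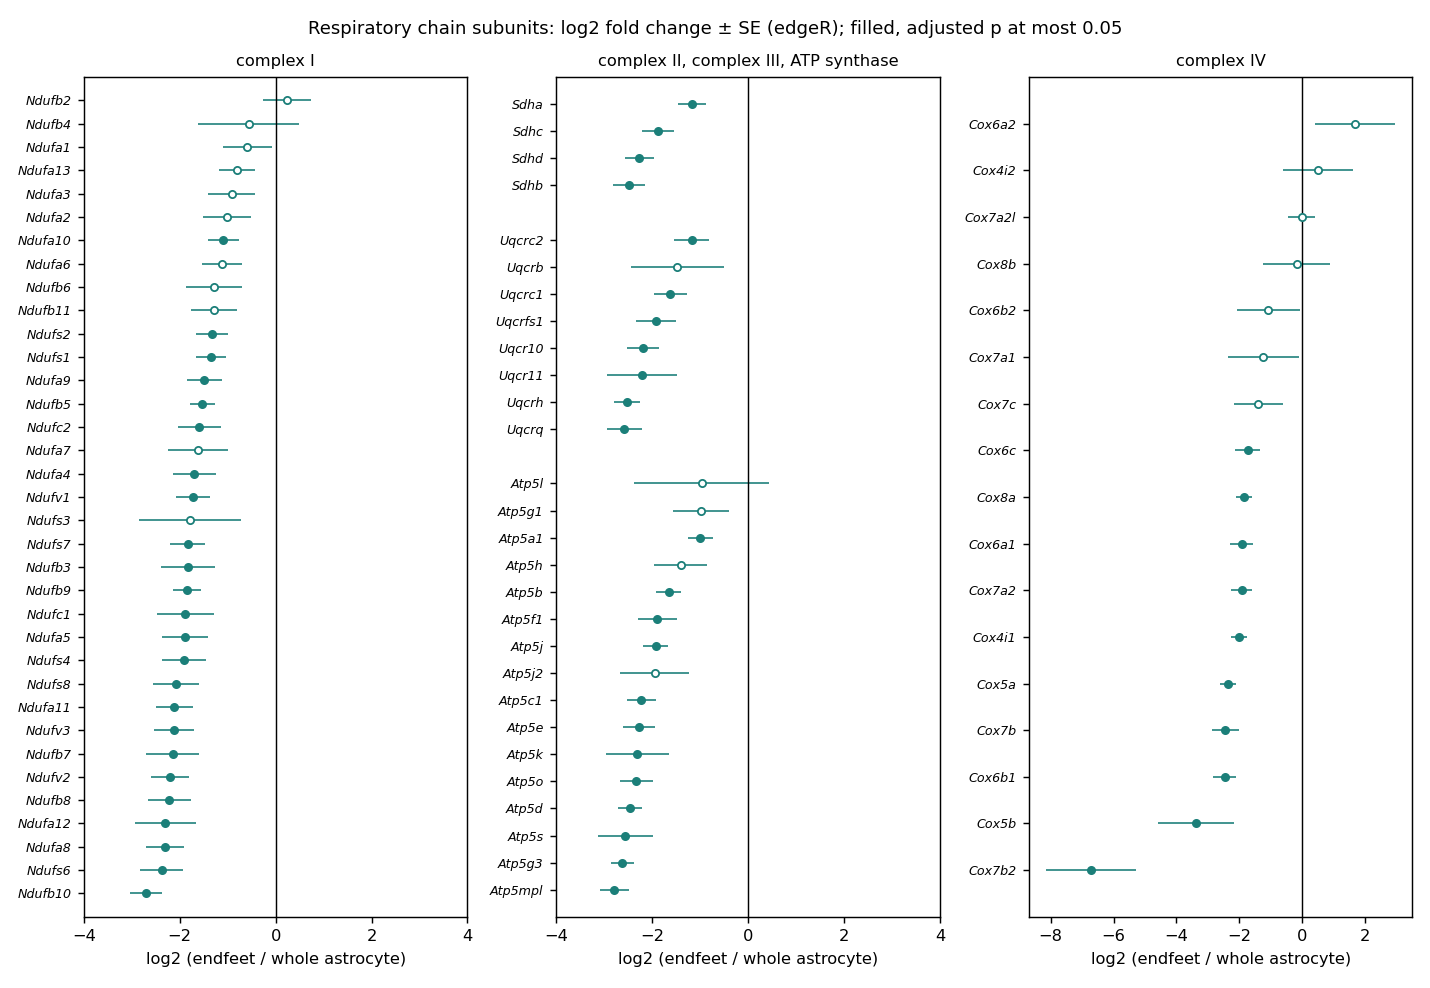
Log2 fold change of endfeet over whole astrocyte TRAP (horizontal axis, points, with SE as bars) of the 80 subunits tested, by complex, with filled points where the adjusted p was at most 0.05. Of 80 points 77 lie left of 0, and the filled points are all on the left. The axis of complex IV is wider.

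All 4 subunits of complex II, which also catalyses a step of the citric acid cycle, were lower, with a median log2 fold change of -2.07. Sdhd, a membrane anchor, had 562, 626 and 602 CPM in W1 to W3 and 52.4 to 181 CPM (median 126) in endfeet TRAP. The iron-sulfur subunit Sdhb had 177, 209 and 215 CPM, against 19.8 to 50.8 CPM (median 32.1). In both, the highest endfeet library stayed below the lowest whole astrocyte library, with log2 fold changes of -2.27 (SE 0.302, adjusted p = 8.9e-05) and -2.49 (SE 0.338, adjusted p = 1e-04). The flavoprotein Sdha, which oxidises succinate, had 839, 863 and 824 CPM against 161 to 448 CPM (median 391), the smallest change of the complex (log2 fold change -1.17, SE 0.287, adjusted p = 0.0067). Its 6 endfeet libraries were also below all whole astrocyte libraries, E6 the most. Each of the 4 was called lower with the length trend removed as well (median -1.42).

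In complex III, 7 of 8 subunits were lower, with a median of -2.06, and 2 of 8 with the length trend removed (median -0.91). Uqcrh, the acidic hinge subunit that contacts cytochrome c1, had 274, 309 and 319 CPM in whole astrocyte TRAP and 26.7 to 70.3 CPM (median 51.2) in endfeet TRAP. The small subunit Uqcrq had 117, 114 and 143 CPM, against 11.5 to 35.8 CPM (median 18.1). Both fell well outside the spread of either group, with log2 fold changes of -2.53 (SE 0.266, adjusted p = 1.3e-05) and -2.58 (SE 0.359, adjusted p = 1.2e-04). The core protein Uqcrc2 changed least, from 352, 373 and 337 CPM to between 91.3 and 255 CPM (median 113), with the highest value in E6 (log2 fold change -1.18, SE 0.362, adjusted p = 0.023). It was not called without W1, W2, W3 or E2 (log2 fold changes -1.14, -1.16, -1.23 and -1.05), with E4 to E6 only, with the library series as a covariate or with the length trend removed (adjusted p = 0.517). Uqcrb, the subunit not called, had 2.62 CPM per 1000 bases in whole astrocyte TRAP and shares 43.2% of its 50-base words with other loci.

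Complex IV has widespread subunits and others known as isoforms of muscle, lung or testis. Of 11 widespread subunits 9 were lower (median -1.93), and of 6 tissue isoforms tested 1 was lower (median -0.63), a difference between the sets that was not tested. With the length trend removed, 6 of all 17 were lower (median -0.62). Cox4i1, the regulatory subunit with the highest level per length of the complex (886 ± 83.4 CPM per 1000 bases, SD, n = 3), had 597, 661 and 722 CPM in W1 to W3 and 110 to 262 CPM (median 145) in endfeet TRAP. Cox5a, a matrix-side subunit, had 232, 230 and 241 CPM, against 33.1 to 52.3 CPM (median 43.1). For neither did the groups overlap, and log2 fold changes were -2.02 (SE 0.250, adjusted p = 4.8e-05) and -2.35 (SE 0.250, adjusted p = 1.5e-05). Another gene, Gm26631, overlaps 41.7% of the Cox5a transcript, and reads of the 2 cannot be told apart without strand. Cox6a1, Cox6b1, Cox7a2, Cox7b and Cox8a, the widespread partners of tissue isoforms, were lower as well, with log2 fold changes of -1.93, -2.46, -1.93, -2.45 and -1.85 and adjusted p between 1.1e-04 and 0.0011. With the length trend removed Cox6a1, Cox7a2 and Cox8a were not called (log2 fold changes -0.62, -0.70 and -0.55, adjusted p = 0.256, 0.155 and 0.142), nor was Cox7b with the trend on length and GC content removed (-1.20). Cox7a2l, which is known to act in the joining of complexes III and IV, had a median of 20.2 CPM in endfeet TRAP and a mean of 22.0 CPM in whole astrocyte TRAP (log2 fold change -0.02, adjusted p = 0.98), a gene chosen here after its values were seen.

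Tissue isoforms of complex IV were low in both groups. Cox4i2, the hypoxia-linked isoform of subunit 4, had 6.03, 8.63 and 8.48 CPM in whole astrocyte TRAP and 0 in E1, 38.5 in E3 and 3.87 to 11.3 CPM in the other endfeet libraries. The muscle isoform Cox6a2 had 0.574 to 0.695 CPM against 0 to 4.36 CPM, and its log2 fold change of 1.68 was the highest of the complex, with an SE of 1.27 and an adjusted p of 0.33. The groups overlapped for both genes and neither was called, and the sign for Cox4i2 (0.50, adjusted p = 0.76) changed with the test. Cox6b2, Cox7a1 and Cox8b had means under 10 CPM in whole astrocyte TRAP and adjusted p between 0.42 and 0.91. The testis isoform Cox7b2 was the one called lower (adjusted p = 0.0027), with 2.58, 2.89 and 4.16 CPM in whole astrocyte TRAP and 0 in 5 endfeet libraries. Its only endfeet count, 1 read in E6 against 378 in whole astrocyte TRAP, gave a ratio of 186 with an exact 95% interval of counting error from 33.2 to 7370. Cox8c had 0 counts in all 9 libraries, which allows up to 0.0834 CPM in each whole astrocyte library and 1.29 CPM in each endfeet library.

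**Figure D4:**
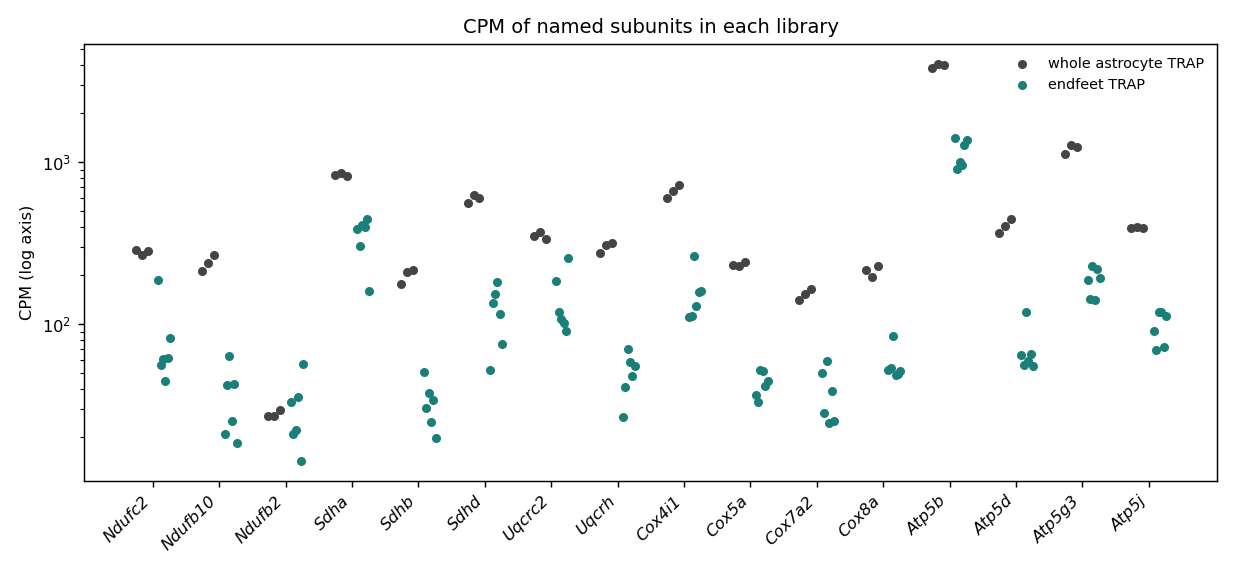
CPM (log axis) of 16 subunits in each library, with 1 point for each of 3 whole astrocyte and 6 endfeet TRAP libraries. The groups are apart for all genes shown except Ndufb2, whose points overlap (27.0 to 29.4 and 14.3 to 56.5 CPM).

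ATP synthase mRNAs made up the largest summed level, 8260 to 8870 CPM in whole astrocyte TRAP and 1970 to 3160 CPM in endfeet TRAP. Of 16 genes tested 12 were lower, with a median log2 fold change of -2.09, and 7 of 16 with the length trend removed (median -1.13). All 5 subunits of the catalytic F1 part were lower, as were 7 of 11 other subunits, against 13.9% of all genes. With the length trend removed, Atp5a1 of the F1 part was not called (adjusted p = 0.22). Nor was Atp5e of that part when counts and length of its coding transcript were used (adjusted p = 0.0733). Atp5b, the catalytic beta subunit, had the highest level per length of all subunits, 2070 ± 56.9 CPM per 1000 bases (SD, n = 3). Its CPM was 3840, 4050 and 4000 in W1 to W3 and 903 to 1420 (median 1150) in endfeet TRAP, which held no value near them (log2 fold change -1.66, SE 0.257, adjusted p = 2.8e-04). Atp5d, the delta subunit of the central stalk, fell from 366, 404 and 444 CPM to between 55.2 and 119 CPM (median 62.0), with E3 highest (log2 fold change -2.46, SE 0.256, adjusted p = 1.2e-05). Atp5j, a coupling factor of the peripheral stalk, fell from 392, 398 and 393 CPM to between 69.7 and 119 CPM (median 102), which is a change of -1.93 in log2 (SE 0.252, adjusted p = 7.5e-05). It was not called with the length trend removed (adjusted p = 0.0911).

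Subunit c, which forms the rotor ring, is encoded by 3 genes for the same mature protein. Atp5g3 had the smallest adjusted p of all subunits, with 1120, 1270 and 1240 CPM in whole astrocyte TRAP and 140 to 230 CPM (median 190) in endfeet TRAP (log2 fold change -2.62, SE 0.230, adjusted p = 3e-06). Atp5g1 had 32.3, 36.4 and 33.5 CPM against 3.94 to 35.4 CPM, and was not called (log2 fold change -0.99, adjusted p = 0.21). It was called lower without E6 (-1.39), with limma voom (-1.43, adjusted p = 0.00942) and with libraries 1 to 3 of each group only (-1.32). Atp5g2 did not pass the filter, and all 50-base words of its transcript (100%) occur elsewhere, so that its level of at most 1.72 CPM is uncertain. Atp5mpl, a small membrane subunit, had the lowest fold change of the group, from 232, 251 and 251 CPM to between 16.9 and 48.8 CPM (median 35.4; log2 fold change -2.79, SE 0.303, adjusted p = 1.8e-05). Atp5l, another membrane subunit and the one with the highest fold change, had 0.695, 1.08 and 0.988 CPM in whole astrocyte TRAP and 0 in 3 endfeet libraries, with 68.5% of its words shared, and was not called (log2 fold change -0.97, adjusted p = 0.62), but was called lower with limma voom (-2.32).

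The ratio of a tissue isoform to its partner within a library does not depend on scaling between libraries. It was compared for 8 pairs with a two-sided exact permutation test of the group labels over 84 arrangements, which cannot go below p = 0.0119. After Benjamini-Hochberg adjustment over the 8 a lone pair at this p has 0.0952, so that no single pair could pass. Ndufa4l2, a paralog of Ndufa4 that is induced by hypoxia and is on the list of pericyte and mural genes, had 0.166 to 0.306 CPM in whole astrocyte TRAP and 0.307 to 17.6 CPM in endfeet TRAP, and in edgeR's test across all genes it was higher (log2 fold change 4.52, SE 1.27, adjusted p = 0.015). Its log2 ratio to Ndufa4 exceeded the 3 values of whole astrocyte TRAP in 6 of 6 endfeet libraries, with a difference of 5.82 (exact permutation p = 0.0119, adjusted p = 0.0952). In E1 this rests on 2 counts of Ndufa4l2 (0.307 CPM), under the 3 that can be told from 0. Ndufa4 had 90.1 CPM in E1, against 152, 168 and 161 CPM in W1 to W3. For Atp5g1 to Atp5g3 the difference was 1.39 (exact permutation p = 0.0595, adjusted p = 0.222), with 5 of 6 endfeet libraries above. Such a ratio is not free of the trend on length, and the transcripts counted for these genes had 4715 and 714 bases. With the length trend removed, their log2 fold changes were close, -1.31 and -1.39. Of the 50-base words of Atp5g1, 11.6% occur at other loci. For Cox7b2 to Cox7b the difference was -2.80 (exact permutation p = 0.0833, adjusted p = 0.222). The other 5 pairs, all of complex IV, had differences between -0.10 and 2.85 and exact permutation p-values between 0.131 and 0.94. In E1, which had no count of Cox4i2, Cox6a2, Cox6b2 and Cox7a1, the ratio rests on the 0.5 added to each count.

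**Figure D5:**
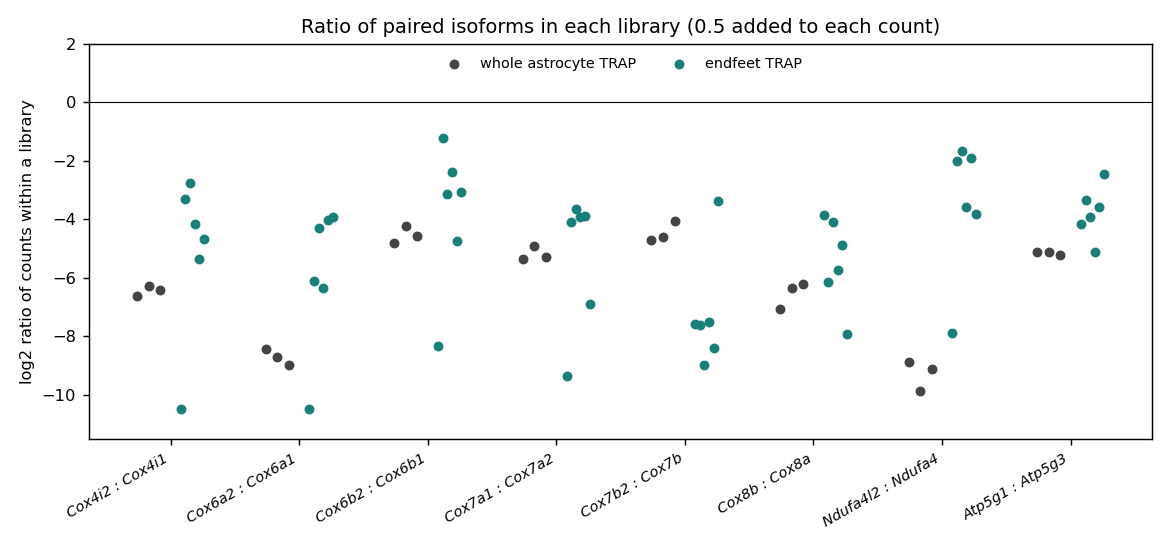
Log2 ratio of the counts of an isoform to those of its partner within each library (vertical axis), for 8 pairs, with 1 point for each whole astrocyte and endfeet TRAP library. Endfeet points spread widely, and for Ndufa4l2 to Ndufa4 all 6 lie above the 3 whole astrocyte points.

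The subunits encoded in mitochondrial DNA, which tagged cytosolic ribosomes do not translate, went the other way. Of 13 mRNAs, 7 could be tested and all 7 were higher in endfeet TRAP, with log2 fold changes from 6.69 to 7.64 (median 7.13). Summed, they had 53.6, 27.8 and 41.2 CPM in W1 to W3 and 3300 to 7970 CPM in endfeet TRAP, 130-fold higher by the means. mt-Nd5, a complex I subunit, had 9.98, 4.69 and 6.76 CPM against 845 to 1640 CPM, and mt-Co1, the catalytic subunit of complex IV, 2.45, 1.33 and 2.73 CPM against 215 to 801 CPM. Both groups were far apart (log2 fold changes 7.49 and 7.64, SE 0.408 and 0.607, adjusted p = 1.1e-07 and 1.3e-06). The mRNAs mt-Co2, mt-Co3, mt-Atp6, mt-Atp8 and mt-Nd4l had 0 counts in all 9 libraries and mt-Nd3 did not pass the filter. Reads that aligned more than once had been removed, so that 0 counts do not show that these mRNAs were absent. How many of their reads were removed was not tested. The part of mRNA not bound to tagged ribosomes in the levels of nuclear-encoded subunits was not tested.

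Other genes of the pathway were mostly lower or not called. Of 44 assembly factors, which build the complexes but stay out of them, 11 were lower (25.0%, against 13.9% of all genes) and 0 higher (median -1.33). The 11 became 4 without W1, W2 or W3 and 18 without E1. With the length trend removed 5 of the 44 were lower, a share near the 11.7% of all genes in that fit. Among the 11 were Ndufaf4 (log2 fold change -2.47, SE 0.339, adjusted p = 1.1e-04) and Coa3 (-1.97, adjusted p = 0.0084). Among 5 electron carriers 4 were lower (80.0%, against 13.9% of all genes, median -2.35). Cyc1 was among the 4, from 310, 363 and 362 CPM to between 13.1 and 78.5 CPM. It encodes cytochrome c1, itself part of complex III but outside the rule on symbols. Cycs, which encodes somatic cytochrome c, was not called (adjusted p = 0.21). Of 15 regulators of mitochondrial biogenesis 2 were lower and 1 higher (median -0.55), a share of lower calls near the 13.9% of all genes, which became 7 with limma voom and 5 without E1. The coactivator Ppargc1a had 405, 345 and 333 CPM in whole astrocyte TRAP and 7.06 to 96.6 CPM in endfeet TRAP (log2 fold change -2.35, adjusted p = 0.0028), and Tfam, which packages and transcribes mitochondrial DNA, 99.1, 113 and 114 CPM against 8.14 to 40.2 CPM (-2.08, SE 0.403, adjusted p = 0.0015). Both lay below every whole astrocyte library in 6 of 6 endfeet libraries. Gabpb2, a partner of GABP, was the one higher (2.90, SE 0.437, adjusted p = 2.3e-04), while Nrf1 (-0.11, adjusted p = 0.93) and Esrra (-1.69, adjusted p = 0.068) were not called. Of 10 genes of outer membrane channels and import 2, Vdac1 and Vdac2, were lower (log2 fold changes -1.74 and -1.15, adjusted p = 0.004 and 0.045), against 13.9% of all genes, and the median was -0.67. This became 1 without W1, W2, W3, E2 or E4, and 0 with the length trend removed.

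Endfeet libraries differed among themselves in how low the subunits were. The median log2 ratio of the 80 subunits to the whole astrocyte mean was -1.35 in E1, -2.21 in E2, -1.71 in E3, -1.97 in E4, -1.97 in E5 and -1.75 in E6. Over all genes tested this median was -0.31, -0.09, -0.05, -0.13, -0.12 and -0.35 in the same order. Between 74 and 79 of the 80 were below all whole astrocyte libraries in each endfeet library. The share of all genes below in single libraries was not computed, and over the endfeet libraries together it was 25.7%. E1 and E3 each held the highest endfeet value of 25 subunits and E2 the lowest value of 25. Libraries E1 to E3 and the rest carry library numbers of separate series, whose meaning is not stated. With E4 to E6 only, which share the series of the whole astrocyte libraries, 65 subunits were lower and 0 higher, and with the series as a covariate 54 and 0.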

How the data were processed

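Astrocyte TRAP libraries were compared by the groups in the labels, 3 of whole astrocytes and 6 of endfeet. Per the submitters' processing notes, base calls were made with bcl2fastq 1.8.4. The authors amplified the RNA without strand information, sequenced reads of 50 bases, aligned them to mm10 with Bowtie, removed reads aligned more than once and deposited raw counts per Ensembl transcript (HTSeq 0.5.3). A read counts on every transcript it overlaps, and amplified reads are not independent molecules, so that floors and intervals cover counting error only.

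Of 75466 transcripts, 73164 were matched to GENCODE M21 of the same build, and the counts of a gene are those of its most counted transcript (largest CPM total across libraries). CPM per 1000 bases uses the coding transcript. An Atp5l pseudogene and a second Ensembl gene also named Atp5o were left out of the subunits. Groups were compared with edgeR 4.0.16 in R 4.3.3 (TMM, filterByExpr, glmQLFTest, Benjamini-Hochberg over 14427 genes, threshold 0.05). Every adjusted p not otherwise named is from this test. SE is the absolute log2 fold change over the square root of F. DESeq2 1.42.0 and limma 3.58.1 served as alternatives, beside other scalings and filters, series, the replicate block, summed transcripts, libraries left out in turn and, added later, fits with each library's trend on transcript length or GC content removed by an offset. The main edgeR fit, DESeq2, limma voom and the length offset were tried on simulated data, and the other settings were not. The simulations gave both groups the same dispersion, unlike these libraries. Figures were drawn with matplotlib 3.10.9 in Python 3.11.15.

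Members and lists were chosen with earlier results of these data known. Named subunits are, in each complex, the highest level per length and the highest and lowest fold change, the 10 smallest adjusted p, both genes of isoform pairs and those that did not pass the filter. P-values measure the spread between these libraries.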

Additional observations from a re-analysis of the deposited data

Results flagged for a closer look

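Of 47 values examined over the 6 endfeet libraries, 13 had a library far from the other 5 by Dixon's criterion. For normally distributed values chance gives about 1 in 20, but CPM and ratios from 0 counts need not be so distributed. Some of the 47 values also share counts, so that the 13 cannot be set against this rate. In E3, Atp5d had 119 CPM (the others at most 65.3), Cox4i1 262, Cox4i2 38.5 and Cox8a 84.3 CPM, and the summed level of complex IV was 713 CPM. In E1, Ndufc2 had 187 CPM. In E5, Atp5l had 2.08 CPM. In E6, the library with the fewest counts, Cox7b2 had 0.431 CPM from 1 count, its log2 ratio to Cox7b was -3.37, and the summed level of complex III was 648 CPM. E1 had the lowest log2 ratios of Cox4i2 to Cox4i1 (-10.49), of Cox6a2 to Cox6a1 (-10.47) and of Ndufa4l2 to Ndufa4 (-7.88), the first 2 from 0 counts of the isoform and the last from 2 counts.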

How the results depend on the processing

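With DESeq2's Wald test 62 subunits were lower, with DESeq2 size factors in edgeR 57, with library totals 61, without the filter 58, with limma voom 70, with summed transcripts 59, with the coding transcript (chosen after seeing the data) 62, and 0 were higher in each. Leaving out a library in turn gave 48 to 66 lower and 0 higher, with 19 to 30 in complex I, 4 in complex II, 5 to 7 in complex III, 9 to 11 in complex IV and 11 to 15 in ATP synthase. Same-numbered libraries of the groups did not deviate together (correlations -0.0359, 0.0172 and 0.0382). With the replicate block over libraries 1 to 3, 53 were lower, against 56 in the same libraries without it. The trend on length removed, then on length and GC content, then on the length of the coding transcript with its counts, left 23, 23 and 20 lower, in complex I 4, 5 and 3, in complex III 2 each, in complex IV 6, 5 and 5, in ATP synthase 7, 7 and 6, of assembly factors 5, 6 and 5, of biogenesis regulators 4 each and of outer membrane import genes 0 each. Of all genes, 11.7% were lower with the trend on length removed, and 11.7% with that on the length of the coding transcript. The cause of the trend was not tested.

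Assembly factors lower numbered 18 with DESeq2, 31 with voom and 19 with E4 to E6 only, biogenesis regulators 4 with at least 10 counts in every library, 7 with voom and 5 with E4 to E6, and outer membrane import genes 1 with DESeq2 size factors or the series covariate, 4 with at least 10 counts, the replicate block or the coding transcript and 5 with voom. Neuronal genes lower numbered 5 with DESeq2, library totals, voom or E4 to E6, and oligodendrocyte genes 2 with DESeq2, voom, the replicate block or its libraries unpaired. At least 10 counts in every library left 7 endothelial and 8 pericyte and mural genes higher, since fewer were tested. Without a library in turn, lower calls ranged from 4 to 18 for assembly factors, 4 to 4 for electron carriers, 2 to 5 (without E1) for regulators, 1 to 3 for import genes, 1 (without W2) to 5 (without E1) for neuronal, 1 to 2 for oligodendrocyte and 5 to 5 for astrocyte genes, and higher calls from 12 to 12 for endothelial, 12 to 13 for pericyte and mural, 6 to 6 for fibroblast, 4 to 6 for microglia, 4 to 5 for ependymal genes and 7 to 7 for mitochondrially encoded mRNAs.

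Over 30 named subunits, 645 of 709 alternative log2 fold changes kept direction and side of the threshold, 31 lost the call, 5 gained one (Atp5g1 and Atp5l) and 28 reversed, all of subunits not called. Reversed were Atp5l with the series covariate (0.04) and with the trends removed (0.34, 0.29 and 0.36), Cox4i2 with voom (-0.52), the covariate (-0.34), E4 to E6 (-0.47) and the replicate block (-0.22), Cox6a2 with the block (-0.03), Cox6b2 with the trends (0.20, 0.14 and 0.23), Cox7a1 with both length trends (0.02 and 0.04), Cox8b with the block (0.15), unpaired (0.43) and with the trends (1.14, 1.06 and 1.15), and Ndufb2 with voom (-0.15), the block (-0.10), unpaired (-0.04) and summed transcripts (-0.57). Without a library in turn Cox4i2 ranged from -0.36 to 0.75, Cox8b from -0.58 to 0.06 and Ndufb2 from -0.03 to 0.41. The ratio of Cox7a1 to Cox7a2 reversed with a pseudocount of 1 (0.24) and with E4 to E6 (0.29). Without a library in turn isoform ratio differences ranged from 0.83 to 2.38 for Cox4i2, 2.47 to 3.77 for Cox6a2, 0.20 to 1.62 for Cox6b2, -0.43 to 0.71 for Cox7a1, -3.57 to -2.45 for Cox7b2, 0.79 to 1.60 for Cox8b, 5.46 to 6.70 for Ndufa4l2 and 1.12 to 1.66 for Atp5g1. Summed transcripts moved the endfeet mean to 400.0 CPM for complex II, 623 for complex IV, 4650 for ATP synthase and 2540 for mitochondrially encoded mRNAs. The depth of E6, where 3 counts are 1.29 CPM, limits the tissue isoforms.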
